A study of Mus musculus with 10 samples.

Results

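The genes described here encode the proteins of the cytosolic ribosome, as measured in mouse liver on Affymetrix mouse genome arrays, which read each transcript with sets of short probes. Members were the genes whose symbol is Rpl or Rps followed by a digit, p or a, without the S6 kinase genes and without pseudogenes, read by a probe set that the platform annotation gives a single symbol. By this rule 50 of 18193 genes were members. They comprised 21 core proteins of the small subunit, 20 core proteins of the large subunit and 2 proteins of the stalk. The rule also took in 6 paralogs (Rpl3l, Rpl7l1, Rpl22l1, Rpl39l, Rps4l and Rps27l) and Rps19bp1, which by its name encodes a binding partner of a ribosomal protein and is not itself one. A further 31 ribosomal protein symbols, among them Rpl3, Rpl5 and Rplp1, occurred only on probe sets that carry several symbols and were not analysed here.

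Livers came from female mice of the inbred strains DBA/2J (D2) and C57BL/6J (B6). Both strains received a diet high in fat and cholesterol for 1, 4, 12 or 21 weeks, and the livers of week 0 were taken without time on it. Every array held RNA pooled from 5 mice of the same strain and week, and the 10 arrays comprised 4 fed D2 pools, 1 week 0 D2 pool, 4 fed B6 pools and 1 week 0 B6 pool. The animals carried no engineered allele by the labels, and their age was not given in the sources used here. No strain and week had a second pool, so the spread in every test was that between pools of different weeks, and the differences between single animals stayed inside each pool.

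The cytosolic ribosome reads messenger RNA on its small subunit and joins amino acids on its large subunit, while the acidic stalk of the large subunit recruits the factors that drive elongation. Most of its proteins are needed in equal numbers, and many of their messengers begin with a run of pyrimidines, the terminal oligopyrimidine tract, through which mTORC1 signalling and Larp1 control their translation. Liver, a tissue with heavy output of secreted proteins, is known for abundant ribosomes.

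Because that tract lies at the very start of the messenger, the annotated transcription starts of the members were read from the RefSeq promoter table (GRCm38.p6), which held 44 of the 50 members. A start was counted when its first base was C and at least 4 further C or T followed on the gene's strand. Of the 44 members 8, or 18.2%, had such a start, against 3.01% of 27025 genes in the table. They are shown as 10 bases before the start and 20 bases from it, on the gene's strand and 5′ to 3′, with the pyrimidine run from the first transcribed base in capitals. Rps6 lies at chr4:86857348-86857377 on the minus strand, Rpl14 at chr9:120571507-120571536 on the plus strand and Rplp2 at chr7:141447641-141447670 on the plus strand. Rpl35 lies at chr2:39005112-39005141 (minus), Rpl38 at chr11:114668570-114668599 (plus), Rps10 at chr17:27635225-27635254 (minus), Rps18 at chr17:33955646-33955675 (minus) and Rps27 at chr3:90213629-90213658 (minus).
Rps6: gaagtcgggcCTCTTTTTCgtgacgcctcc
Rpl14: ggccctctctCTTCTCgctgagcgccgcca
Rplp2: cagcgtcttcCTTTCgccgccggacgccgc
Rpl35: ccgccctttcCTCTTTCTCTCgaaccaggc
Rpl38: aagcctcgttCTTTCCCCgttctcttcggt
Rps10: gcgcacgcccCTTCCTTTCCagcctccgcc
Rps18: cacttccgctCTCTCTTCCacaggaggcct
Rps27: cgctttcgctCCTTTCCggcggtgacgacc

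The starts of 4 further members are shown because the strain results below turn on them, and none of these annotated starts met the count above. Rplp0 lies at chr5:115559457-115559486 (plus), Rpsa at chr9:120127756-120127785 (plus), Rps3a1 at chr3:86142649-86142678 (minus) and Rps9 at chr7:3704031-3704060 (plus). No match says only that the first annotated base does not open such a run in these letters.
Rplp0: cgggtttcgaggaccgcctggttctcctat
Rpsa: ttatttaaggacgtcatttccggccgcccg
Rps3a1: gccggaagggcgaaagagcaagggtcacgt
Rps9: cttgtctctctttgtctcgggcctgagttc

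In the whole 300-base windows, searched on both strands, the letters CCGGAAG, the core of sites bound by ETS and GABP factors, were present in 21 of the 44 members (47.7%), against 9.93% of genes. The letters AAGATGG, the core of YY1 sites, were present in 8 members (18.2%), against 7.28% of genes. The letters TATAAA of a TATA box were present in 6 members (13.6%), against 15.7% of genes. These matches describe the windows and no binding was measured here.

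Levels are given as log2 of the quantile-normalised signal plus a pseudocount of 1.05, and a gene was tested when its mean over the arrays lay above 3.74 on that scale, the median of all probe sets. This left 47 of the 50 members among 11061 genes. Every one of the 47 had a mean above that filter in each strain, the lowest being Rpl14 in B6 livers at 4.65. The probe sets of Rpl39l, a paralog of Rpl39 known from testis, of Rpl3l, a paralog of Rpl3 known from muscle, and of the core protein gene Rps16 stayed below the filter. Rps16 read 0.50, 0.86, 2.35, 0.37 and 0.48 in D2 livers and 0.47, 0.42, 0.43, 0.96 and 1.02 in B6 livers at weeks 0, 1, 4, 12 and 21. Every ribosome carries this core protein, and the low reading describes that probe set only.

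Most members varied little across strains and weeks. Over the 10 arrays the median SD of the 47 members was 0.12 on the log2 scale, against 0.28 for all genes tested. For the 35 members with a mean above 10 it was 0.10, against 0.19 for 690 other genes above that mean. The steadiest member was Rpl10a, a core protein beside the exit site for transfer RNA, with an SD of 0.031. The 12 dimmer members had a median SD of 0.42, the largest being that of Rps4l at 0.95. The bright and dim members were also read by different kinds of probe set: 5 of the 35 bright members were read by an unsuffixed set, marked _at, against 10 of the 12 dim members. The other suffixes, _a_at, _s_at and _x_at, mark probes that can bind more than 1 transcript, and they read 32 of the 50 members in all.

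**Figure D1:**
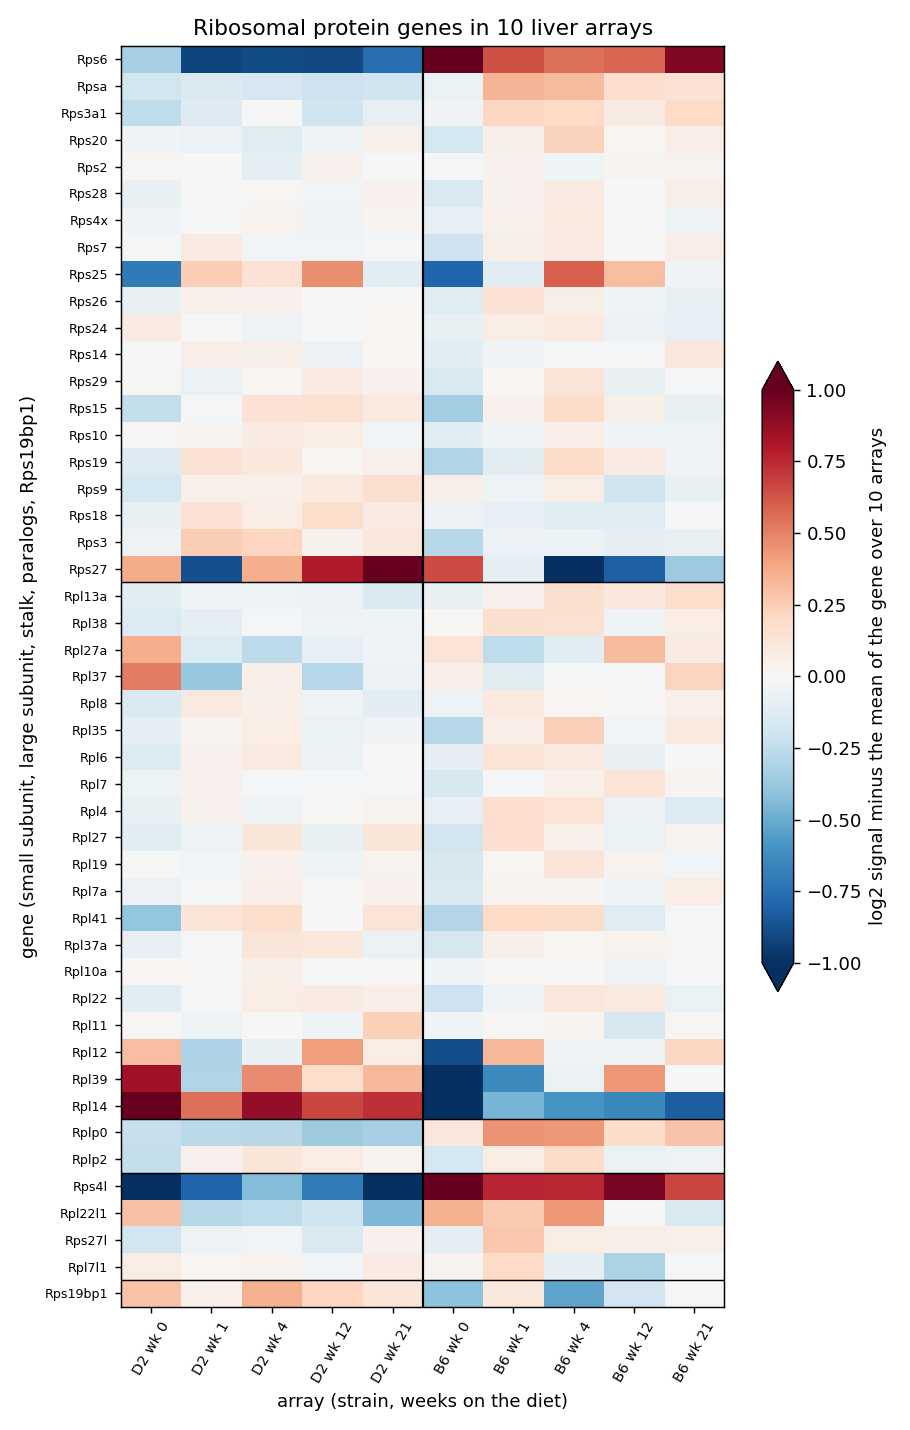
Level of each of the 47 tested members on each array (columns, D2 left of B6, weeks 0 to 21), as log2 normalised signal minus the gene's mean over the 10 arrays, with rows grouped by role. Most rows are pale throughout, while Rps6 and Rps4l are low and Rpl14 is high in all D2 arrays.

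The first comparison set D2 against B6 livers, with week as a block. A few members differed strongly between the strains and most did not. Of the 47 members 6 were called at an adjusted p under 0.05 (limma, Benjamini-Hochberg over all genes), with 7.98% of all genes called in the same comparison. Of these 5 were lower in D2 livers, where 4.08% of all genes were called lower, and 1 was higher, where 3.91% of all genes were called higher. The median difference, D2 minus B6, was 0.01 for the members and 0.01 for all genes, and 31 of the 47 members lay within 0.1 of zero. The calls are described gene by gene and are no result on the members as a group. In liver tissue fewer cells of a type and less RNA per cell cannot be told apart.

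Among the small subunit proteins the largest difference was that of Rps6, the protein phosphorylated by S6 kinases downstream of mTORC1. Its levels were 6.35, 5.77, 5.79, 5.78 and 5.93 in D2 livers at weeks 0, 1, 4, 12 and 21, and 7.78, 7.32, 7.23, 7.27 and 7.61 in B6 livers. Every D2 array lay below every B6 array, and in both strains the week 0 array was the highest of the 5. The means were 5.92 ± 0.25 in D2 livers and 7.44 ± 0.24 in B6 livers (SD, n = 5 each). By this probe set Rps6 thus read 2.87-fold lower in D2 livers, a log2 difference of -1.52 ± 0.10 (SE, limma adjusted p = 0.00011). A second Rps6 probe set lay below the filter and was not tested. The tested set was itself dim for a core protein, with a mean of 6.68 over the 10 arrays, and the difference describes that set.

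Rpsa, a small subunit protein also known as the laminin receptor precursor, read 10.46, 10.50, 10.47, 10.44 and 10.44 in D2 livers and 10.58, 10.99, 10.96, 10.81 and 10.79 in B6 livers over the same weeks. The D2 arrays were nearly flat and all lay below the B6 arrays, of which week 0 came closest to them. The difference was -0.36 ± 0.08 (SE, limma adjusted p = 0.0275). The call was lost without any 1 of the 8 fed arrays, with adjusted p up to 0.0890. It was also lost on the authors' own scale, with centring on array medians and with limma fitted without a variance trend. The gene's other probe set lay below the filter, and averaging both gave a difference of 0.28, higher in D2 (limma adjusted p = 0.264).

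Rps3a1, a small subunit protein near the exit channel of the messenger, read 11.38, 11.50, 11.62, 11.43 and 11.55 in D2 livers and 11.60, 11.84, 11.83, 11.71 and 11.83 in B6 livers. D2 was lower at each of the 5 weeks, although D2 at week 4 and B6 at week 0 overlapped. The difference, by the gene's only single-symbol probe set, was -0.27 ± 0.06 (SE, limma adjusted p = 0.0287). This call did not hold without any 1 of the 10 arrays, with adjusted p between 0.0577 and 0.0964. It was also lost under 4 of 12 alternatives that kept all arrays, with limma adjusted p up to 0.390.

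Rps3, a small subunit protein at the entry channel of the messenger, was the one member without a call whose arrays did not overlap. It read 11.11, 11.42, 11.38, 11.21 and 11.27 in D2 livers and 10.88, 11.10, 11.10, 11.07 and 11.09 in B6 livers. D2 was higher at every week, by 0.23 ± 0.06 (SE, limma adjusted p = 0.0619). The other 2 probe sets of Rps3, both dimmer, differed in opposite directions, at 0.96 ± 0.28 and -0.73 ± 0.19, and were not called either (SE, limma adjusted p over probe sets = 0.0847 and 0.0548). Rps27, a zinc-finger protein of the small subunit, differed by 0.68 ± 0.37 (SE, limma adjusted p = 0.302), its D2 levels running between 5.26 and 7.18 and its B6 levels between 5.07 and 6.79. For Rps27, D2 minus B6 was -0.29 and -0.78 at weeks 0 and 1, and 1.43, 1.61 and 1.41 at weeks 4, 12 and 21. The sign thus changed between weeks, and the value did not pass the test blocked by week.

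Of the 20 large subunit proteins only Rpl14 was called. It encodes a core protein on the outer surface of the subunit. Its levels were 6.59, 6.00, 6.32, 6.11 and 6.18 in D2 livers, and 4.00, 4.98, 4.86, 4.80 and 4.63 in B6 livers. All D2 arrays lay above all B6 arrays, and the gap was widest at week 0. The means were 6.24 ± 0.23 in D2 livers and 4.65 ± 0.39 in B6 livers (SD, n = 5 each). Rpl14 read higher in D2 livers, by 1.59 ± 0.22 on the log2 scale (SE, limma adjusted p = 0.00481). This rests on its only single-symbol probe set, a dim one with a mean of 5.45 over the 10 arrays. The B6 readings lay close to the filter, and the size ran from 1.17 to 1.63 under the other settings that kept all arrays. Rpl39, a small protein lining the exit tunnel, read between 5.22 and 6.35 in D2 livers and between 4.28 and 5.95 in B6 livers, a difference of 0.60 ± 0.30 (SE, limma adjusted p = 0.261). Rpl12, a protein at the base of the stalk, differed by 0.17 ± 0.26 (SE, limma adjusted p = 0.744).

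Rpl13a, which is also part of a complex that silences inflammatory messengers, was lower in D2 at each of the 5 weeks but was not called, at -0.16 ± 0.06 (SE, limma adjusted p = 0.162). Rpl11, a protein that binds Mdm2 when ribosome assembly is disturbed, differed by 0.06 ± 0.07 (SE, limma adjusted p = 0.641). The levels of Rpl11 were 11.00 ± 0.12 in D2 livers and 10.94 ± 0.08 in B6 livers (SD, n = 5 each), so the strains overlapped.

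The 2 stalk proteins measured gave unlike values. Rplp0, which anchors the stalk, read 11.01, 10.97, 10.97, 10.89 and 10.91 in D2 livers and 11.35, 11.69, 11.67, 11.43 and 11.53 in B6 livers. No arrays overlapped, and the smallest gap at a week was that of week 0. By its only single-symbol probe set Rplp0 read 1.50-fold lower in D2 livers, a log2 difference of -0.59 ± 0.07 (SE, limma adjusted p = 0.00324). Rplp2, an acidic protein that dimerises on the stalk, read 11.38, 11.66, 11.74, 11.69 and 11.64 in D2 livers and 11.44, 11.69, 11.80, 11.55 and 11.56 in B6 livers. Its difference was 0.01 ± 0.06 with a 95% interval of -0.13 to 0.15 (SE, limma adjusted p = 0.922).

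Among the paralogs Rps4l, a gene related to Rps4x, had the largest difference of all members. It read 4.90, 5.39, 5.75, 5.49 and 5.07 in D2 livers and 7.38, 6.95, 6.94, 7.14 and 6.86 in B6 livers. The groups were separated by more than 1 log2 unit, and week 0 was the lowest of the D2 arrays and the highest of the B6 arrays. By its only single-symbol probe set Rps4l read lower in D2 livers, a log2 difference of -1.73 ± 0.18 (SE, limma adjusted p = 0.00119). The D2 readings lay near the filter, and the size ran from -1.82 to -1.42 under the other settings that kept all arrays. Rps4x, its X-linked relative and a core small subunit protein, averaged 11.56 ± 0.03 in D2 livers and 11.57 ± 0.07 in B6 livers (SD, n = 5 each).

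Rpl22l1, the paralog of Rpl22, was lower in D2 at each of the 5 weeks without being called, at -0.36 ± 0.11 (SE, limma adjusted p = 0.0820), while Rpl22 itself differed by 0.04 ± 0.06 (SE, limma adjusted p = 0.713). Rps27l, a paralog of Rps27 that p53 induces, differed by -0.15 ± 0.07 (SE, limma adjusted p = 0.237). Rpl7l1 differed by 0.07 ± 0.10 and Rpl7 by -0.02 ± 0.06 (SE, limma adjusted p = 0.689 and 0.897). No paralog and its parent gene were both called. Rps19bp1, which is no ribosomal protein, differed by 0.41 ± 0.15 (SE, limma adjusted p = 0.145).

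For the members without a call the quantile-normalised arrays set narrow limits where the signal was high. The 95% intervals of all 32 uncalled members with a mean above 10 lay between -0.31 and 0.37 on the log2 scale. For all 41 uncalled members they reached from -0.60 to 1.52, the wide ones belonging to dim probe sets. These limits are for the probe set signal on that scale. With centring on array medians the median strain difference was 0.11 for the members and 0.03 for all genes. Arrays of the strains did not overlap in 6 members, with 8.30% of all genes so separated. These were Rps6, Rps4l, Rplp0 and Rpsa, lower in D2 as were 4.13% of all genes, and Rpl14 and Rps3, higher in D2 as were 4.17% of all genes.

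**Figure D2:**
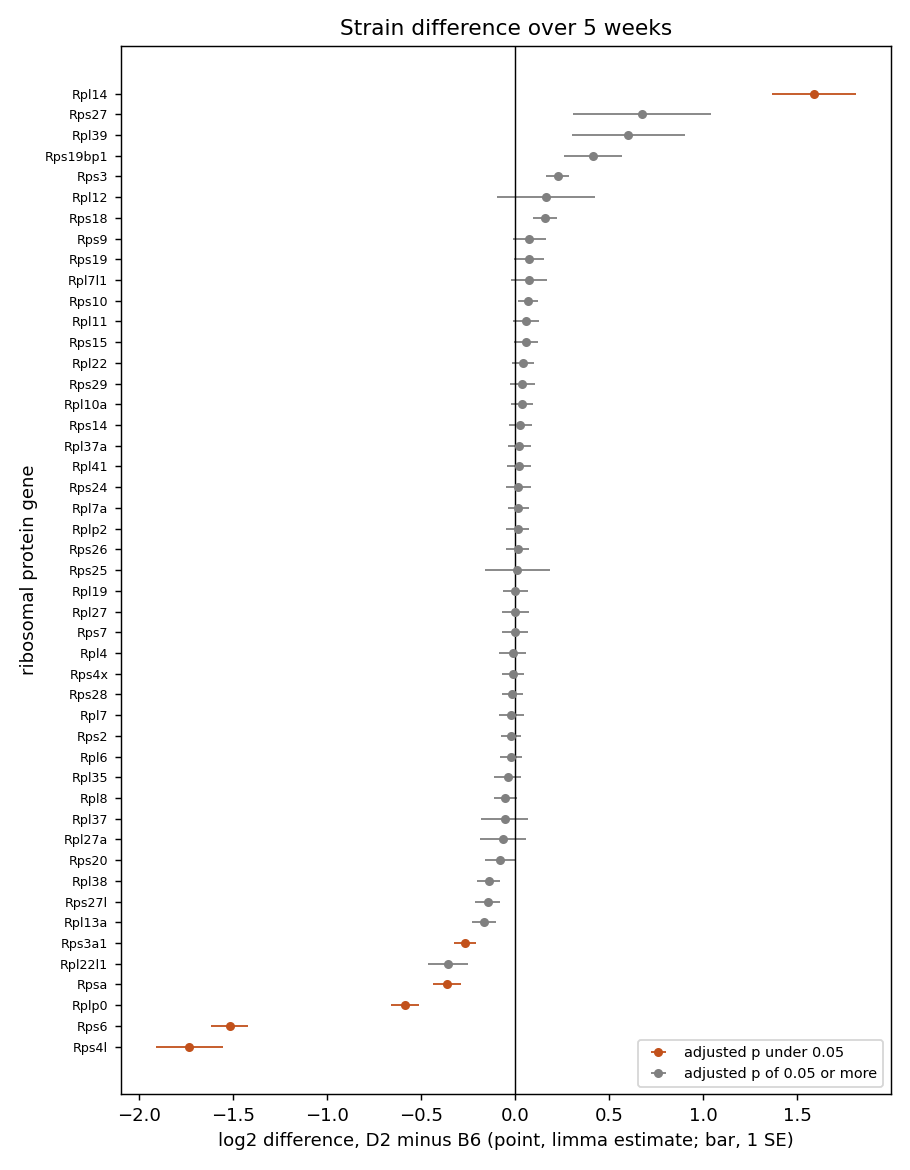
Strain difference of each tested member over the 5 weeks, as the limma estimate of D2 minus B6 on the log2 scale, with bars of 1 SE. The 6 members with an adjusted p under 0.05 are coloured, and most of the others lie within 0.1 of zero.

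Rps6, Rps4l, Rplp0 and Rpl14 stayed called without any 1 of the 10 arrays. Leaving out an array also removed its partner of the same week from the difference. Over these fits the difference ran between -1.54 and -1.48 for Rps6 and between -1.87 and -1.54 for Rps4l. It ran between -0.65 and -0.55 for Rplp0 and between 1.34 and 1.73 for Rpl14, and the largest limma adjusted p of the 4 genes was 0.0247.

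**Figure D3:**
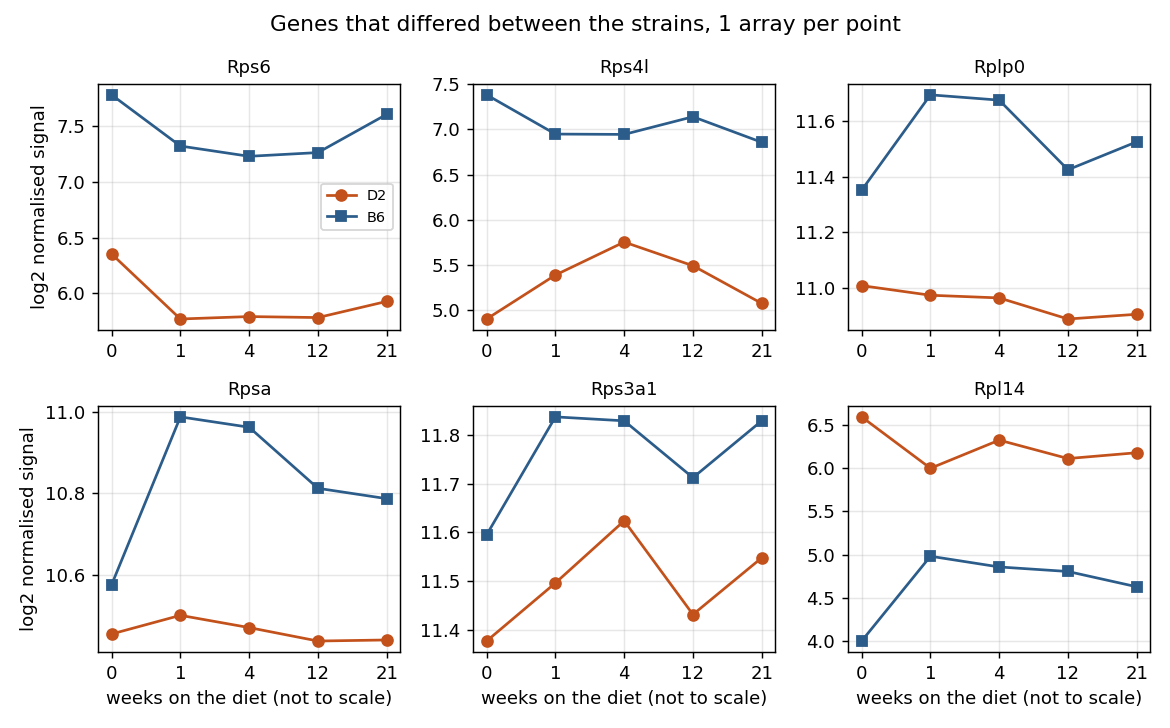
Levels of the 6 called members at weeks 0, 1, 4, 12 and 21 (log2 normalised signal, 1 pool of 5 mice per point, D2 orange and B6 blue, each panel with its own vertical range). The lines do not cross in any panel, Rpl14 is higher in D2 and the other genes are lower in D2.

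For 24 members more than 1 probe set was available, up to 6 for a gene. Of the 106 probe sets of members 92 passed the filter, and 45 of those were not the brightest of their gene. In a fit over all 19564 single-symbol probe sets that passed, 6.81% were called between the strains. Of the 45 only 1 was called, a probe set of Rps9, a core protein of the small subunit near the decoding centre. It was singled out after its values were seen. This set, with the suffix _x_at, read 7.74, 6.03, 5.39, 5.96 and 5.86 in D2 livers and 10.22, 10.07, 10.24, 10.21 and 10.42 in B6 livers. The difference was -4.04 ± 0.29 (SE, limma adjusted p = 0.000136), larger than that of any tested member by its brightest set.

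The brightest set of Rps9, with the suffix _s_at, did not show it. Rps9 read 10.69, 10.91, 10.91, 10.96 and 11.02 there in D2 livers and 10.92, 10.81, 10.93, 10.66 and 10.79 in B6 livers, a difference of 0.08 ± 0.09 (SE, limma adjusted p = 0.676). The third set, an unsuffixed one, differed by 0.24 ± 0.18 (SE, limma adjusted p = 0.491). The 3 probe sets therefore gave no common direction for Rps9, and what sets them apart was not tested. The _x_at set of Rps9 was also the one member probe set called for the response of D2 livers, where the 4 fed arrays all lay below week 0, with a log2 difference of -1.93 ± 0.24 (SE, limma adjusted p = 0.0128). In B6 livers its response was 0.01 ± 0.24 (SE, limma adjusted p = 0.990), and the test of the difference of the responses did not pass, at -1.94 ± 0.33 (SE, limma adjusted p = 0.167).

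**Figure D4:**
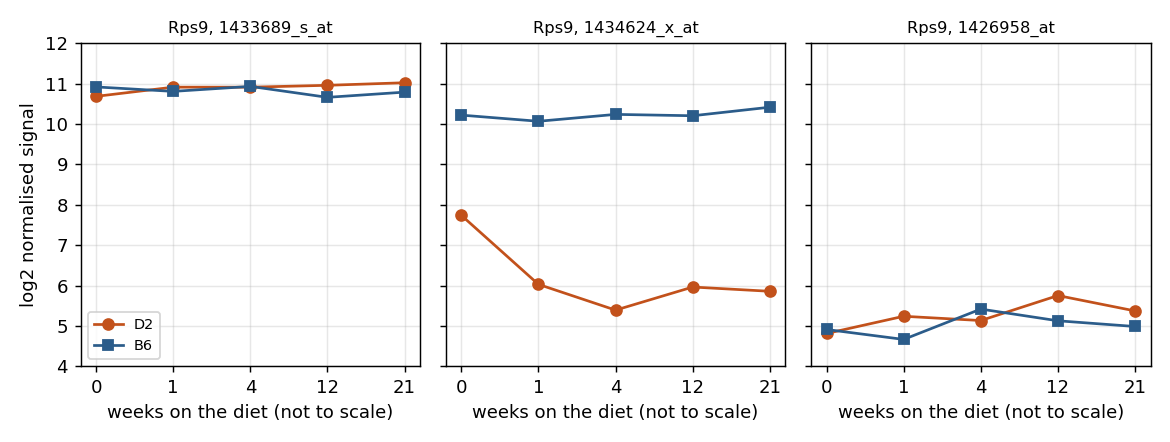
Levels of Rps9 by its 3 probe sets at weeks 0, 1, 4, 12 and 21 (log2 normalised signal, 1 pool of 5 mice per point, D2 orange and B6 blue). The strains overlap in the left and right sets, while in the middle set all D2 arrays lie at or below 7.74 and all B6 arrays at or above 10.07.

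Next, the 8 arrays of fed livers were compared with the 2 week 0 arrays, and a term for strain was included. No pool came from mice kept off the diet for the same weeks. The diet and the time passed therefore cannot be told apart, here or in the responses of each strain below. No member was called, with 0.651% of all genes called, and 14 of the 47 members had an unadjusted p under 0.05 in the same limma fit, against 17.5% of all genes. Of these 14 members 11 were higher on the diet, as were 1076 of the 1931 genes at that level. The difference, fed minus week 0, was above zero in 40 members and below zero in 7. Over all genes it was above zero in 5746 and below zero in 5315. The median was 0.12 for the members and 0.01 for all genes. All members share the same week 0 arrays, so their signs are not independent. In 18 members all 8 fed arrays lay above the week 0 array of their strain, as in 11.1% of all genes.

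The largest value was that of Rps25, a small subunit protein that some viral messengers need for their internal start. Its levels were 5.09, 4.98, 5.31 and 4.73 in fed D2 livers at weeks 1, 4, 12 and 21, against 4.13 at week 0. In fed B6 livers they were 4.74, 5.44, 5.15 and 4.80, against 4.05 at week 0. Every fed array was above its week 0 array, and the difference was 0.94 ± 0.23 (SE, limma adjusted p = 0.0828). The probe set was dim for a core protein, with a mean of 4.84, and its week 0 readings lay near the filter of 3.74.

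Rpl41, a very short basic peptide of the large subunit, read 11.86, 11.91, 11.74 and 11.86 in fed D2 livers against 11.34 at week 0, and 11.93, 11.91, 11.61 and 11.71 in fed B6 livers against 11.44. Its difference was 0.43 ± 0.10 (SE, limma adjusted p = 0.0692). Without the B6 array of week 12 it was called at 0.46 (limma adjusted p = 0.0490), the one call that any left-out array gave in this comparison. Rps15, a small subunit protein needed for export of the subunit from the nucleus, was higher in all 8 fed arrays too, by 0.37 ± 0.08 (SE, limma adjusted p = 0.0702).

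Rps19, the gene most often mutated in human Diamond-Blackfan anaemia, differed by 0.27 ± 0.09 (SE, limma adjusted p = 0.173), and Rplp2 by 0.26 ± 0.08 (SE, limma adjusted p = 0.140). Rpl12 differed by 0.36 ± 0.29 (SE, limma adjusted p = 0.538). All 8 fed arrays were above week 0 for Rps19 and for Rplp2, and 5 of the 8 for Rpl12.

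On the low side stood Rps27 at -0.64 ± 0.45 and Rps6 at -0.48 ± 0.13 (SE, limma adjusted p = 0.486 and 0.0943). Rps6 was the one member with all 8 fed arrays below week 0. Rpl22l1 differed by -0.41 ± 0.15, Rpl37 by -0.36 ± 0.16 and Rpl27a by -0.31 ± 0.16 (SE, limma adjusted p = 0.204, 0.285 and 0.340). In each of these 3 genes 1 of the 8 fed arrays lay above its week 0 array, and Rpl7l1 stood at -0.07 ± 0.13 (SE, limma adjusted p = 0.804).

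Of the genes followed in every comparison, Rplp0 differed by 0.08 ± 0.10 and Rpsa by 0.16 ± 0.09 between fed and week 0 livers (SE, limma adjusted p = 0.708 and 0.395). Rpl13a differed by 0.11 ± 0.07, Rpl11 by 0.02 ± 0.09 and Rpl7 by 0.13 ± 0.07 (SE, limma adjusted p = 0.424, 0.937 and 0.371). Rpl22 differed by 0.19 ± 0.08, Rps27l by 0.17 ± 0.08 and Rpl39 by 0.25 ± 0.38 (SE, limma adjusted p = 0.220, 0.315 and 0.762). None of these 8 genes exceeded the spread between arrays after adjustment.

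The sign of the members' shift against other genes depended on how the arrays were scaled. On the authors' own scale, without normalisation between arrays, all genes moved by a median of 0.52 in fed livers and the members by 0.45, so that the members stood below the other genes. With arrays centred on their medians, all genes moved by 0.16 and the members by 0.09. With quantile normalisation the members stood above all genes, at 0.12 against 0.01. The trimmed mean of the deposited signal lay between 68.5 and 88.7 in fed livers, against 56.5 in D2 and 55.8 in B6 livers of week 0. On the authors' own scale 36 of the 47 members were called higher on the diet, together with 4949 of 11061 genes.

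**Figure D5:**
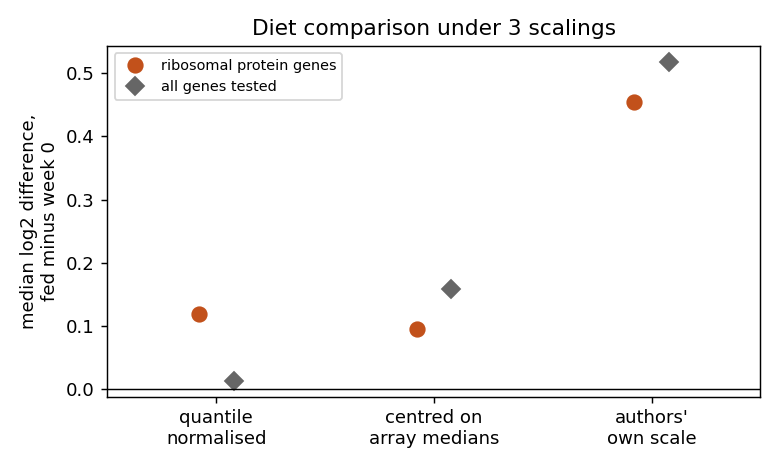
Median log2 difference, fed minus week 0, of the 47 tested members (circles) and of all 11061 genes tested (diamonds) under 3 scalings of the arrays. The members lie above all genes after quantile normalisation and below them under the other scalings.

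The week 0 array of D2 was the lowest of the 10 arrays in 8 of the 47 members, and the week 0 array of B6 in 22. Without the B6 array of week 0 the median diet difference of the members was 0.04, and without the D2 array of week 0 it was 0.19, each fit then resting on the response of the other strain.

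Within D2 livers no member was called between fed arrays and week 0 (0.118% of all genes called), and 8 members had an unadjusted limma p under 0.05, with 11.5% of all genes at that level. The median difference was 0.04 for the members and 0.00 for all genes. All 4 fed arrays exceeded week 0 in 23 of the 47 members and in 27.3% of all genes. Within B6 livers no member was called either (0.118% of all genes), and 13 members had an unadjusted limma p under 0.05, with 12.6% of all genes at that level. There the median difference was 0.19 for the members and 0.01 for all genes. In both strains the members stood below all genes under the other scalings. With centring on array medians the members moved by 0.0779 and all genes by 0.19 in D2 livers, and the members by 0.0359 and all genes by 0.11 in B6 livers. On the authors' own scale the members moved by 0.32 and all genes by 0.43 in D2 livers, and the members by 0.51 and all genes by 0.58 in B6 livers. In B6 livers all 4 fed arrays exceeded week 0 in 31 of the 47 members and in 26.7% of all genes. Each strain has a lone week 0 array, which these fits took to vary as much as its fed arrays do.

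In D2 livers the largest values on the diet were those of Rps25 at 0.89 ± 0.33, Rps4l at 0.52 ± 0.24 and Rpl41 at 0.50 ± 0.14 (SE, limma adjusted p = 0.351, 0.452 and 0.220). Rps15 followed at 0.34 ± 0.12, Rplp2 at 0.30 ± 0.12 and Rps9 at 0.27 ± 0.12 (SE, limma adjusted p = 0.346, 0.375 and 0.442). The lowest were Rpl37 at -0.67 ± 0.20, Rpl39 at -0.67 ± 0.38 and Rpl22l1 at -0.59 ± 0.21 (SE, limma adjusted p = 0.245, 0.560 and 0.339). Rps6 stood at -0.54 ± 0.18, Rpl27a at -0.50 ± 0.22 and Rpl14 at -0.44 ± 0.22 in D2 livers (SE, limma adjusted p = 0.318, 0.424 and 0.482). The remaining followed genes lay between -0.08 for Rplp0 and 0.16 for Rpl22. None of these passed the test.

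In B6 livers the largest values were those of Rpl39 at 1.17 ± 0.38, Rpl12 at 1.00 ± 0.30 and Rps25 at 0.98 ± 0.33 (SE, limma adjusted p = 0.291, 0.261 and 0.297). Rpl14 followed at 0.82 ± 0.22, Rps15 at 0.40 ± 0.12 and Rpl35 at 0.38 ± 0.12 (SE, limma adjusted p = 0.219, 0.265 and 0.286). The probe sets of Rpl39, Rpl12, Rps25 and Rpl14 were dim, with means of 5.52, 4.89, 4.84 and 5.45 over the 10 arrays. The lowest were Rps27 at -1.24 ± 0.62, Rps6 at -0.43 ± 0.18 and Rps4l at -0.41 ± 0.24 (SE, limma adjusted p = 0.431, 0.382 and 0.496). Rpl22l1 stood at -0.22 ± 0.21, Rps9 at -0.12 ± 0.12 and Rpl27a at -0.12 ± 0.22 in B6 livers (SE, limma adjusted p = 0.664, 0.690 and 0.843). The remaining followed genes lay between -0.09 for Rpl7l1 and 0.31 for Rpsa. None of these passed the test.

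The change from week 0 to fed livers was then compared between the strains, as the response of D2 minus that of B6. No member was called (0.00904% of all genes called), and 5 had an unadjusted limma p under 0.05, with 6.09% of all genes at that level. The median was -0.09 for the members and -0.03 for all genes. With centring on array medians both turned positive, at 0.05 for the members and 0.08 for all genes. Rpl39 stood lowest at -1.84 ± 0.54, followed by Rpl12 at -1.29 ± 0.43 and Rpl14 at -1.26 ± 0.31 (SE, limma adjusted p = 0.704, 0.717 and 0.525). For each of these 3 genes the week 0 array of B6 was the lowest of the 10, at 4.28 for Rpl39, 4.01 for Rpl12 and 4.00 for Rpl14. On the high side stood Rps27 at 1.21 ± 0.87, Rps4l at 0.93 ± 0.34 and Rps9 at 0.39 ± 0.17 (SE, limma adjusted p = 0.909, 0.727 and 0.816).

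The lower and the higher end of that comparison were completed by genes with smaller values. Rpl37 stood at -0.62 ± 0.28, Rpl27a at -0.38 ± 0.31 and Rpl22l1 at -0.36 ± 0.30 (SE, limma adjusted p = 0.816, 0.922 and 0.922). Rps18 stood at 0.21 ± 0.14, Rpl41 at 0.15 ± 0.20 and Rplp2 at 0.10 ± 0.17 (SE, limma adjusted p = 0.879, 0.938 and 0.963). Rplp0 stood at -0.30 ± 0.17, Rpsa at -0.30 ± 0.16 and Rps6 at -0.11 ± 0.26 (SE, limma adjusted p = 0.864, 0.859 and 0.979). The remaining followed genes lay between -0.16 for Rpl13a and 0.05 for Rpl7l1. The design could bound these differences only loosely, since the 95% intervals of the 35 members with a mean above 10 reached from -0.69 to 0.77.

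Over the time on the diet the members showed no detectable trend. The slope per doubling of the weeks, fitted on the 8 fed arrays, was called in no member and in 0% of all genes, and 1 member had an unadjusted limma p under 0.05, with 4.73% of all genes at that level. That member was Rpl39 at 0.15 ± 0.06 (SE, limma adjusted p = 0.972). The slopes of the 35 members with a mean above 10 lay between -0.04 and 0.02, and the median slope was -0.01 for the members. Rps27 had the highest slope at 0.18 ± 0.11, and after Rpl39 came Rpl27a at 0.07 ± 0.04, Rpl37 at 0.05 ± 0.03, Rpl12 at 0.04 ± 0.06 and Rps6 at 0.04 ± 0.03. Rpl22l1 had the lowest at -0.06 ± 0.04, followed by Rpl41 at -0.04 ± 0.02, Rplp0 at -0.04 ± 0.02, Rpl4 at -0.04 ± 0.02, Rpl7l1 at -0.03 ± 0.04 and Rpsa at -0.03 ± 0.02. The limma adjusted p of these slopes lay between 0.972 and 0.989. The remaining followed genes (Rps27l, Rplp2, Rpl13a, Rpl7, Rpl22 and Rpl11) lay between -0.02 and 0.02.

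Week by week the strains kept close together. The median of D2 minus B6 over the members was 0.08, -0.06, -0.05, -0.0036 and 0.0091 at weeks 0, 1, 4, 12 and 21. The median change from the own week 0 was 0.06, 0.07, 0.05 and 0.06 in D2 livers at weeks 1, 4, 12 and 21, and 0.18, 0.20, 0.11 and 0.14 in B6 livers. In both strains the median was above zero at every week and had no steady course. These are descriptions of single pools, without a test.

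The bright members moved partly together. Over the 10 arrays, which share their normalisation, the 595 pairs of the 35 members above a mean of 10 had a median Pearson r of 0.40, with a range of -0.78 to 0.96. Pairs of other bright genes were not computed to set beside this. Rps4x followed the median of the other bright members most closely, at r = 0.93, and Rpl35 stood at 0.89. Rps18 ran against it, at r = -0.23, and Rplp0, which differed between the strains, stood at 0.15. The 11061 genes tested, members left out, were searched for the highest r with the median of the bright members. At the top of this large search stood Ifih1, a sensor of double-stranded RNA (r = 0.96), and Plagl2, a zinc-finger factor (r = 0.95). Ccng1, a p53 target, Uba7, an enzyme of ISG15 conjugation, and Mrpl27, a mitochondrial ribosomal protein, followed at r = 0.94 each over the 10 arrays. In B6 livers Uba7 read 5.50, 6.71, 7.61, 6.58 and 6.14 at weeks 0, 1, 4, 12 and 21, a range far wider than that of the bright members.

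Genes that make, regulate or resemble the ribosome were set beside the members. Of 50 ribosome biogenesis genes 2 were called between the strains. Rrp9, a protein of the U3 particle, was higher in D2 by 0.61 ± 0.14, and Nop10, a protein of the particles that guide pseudouridylation, was lower in D2, at -0.29 ± 0.07 (SE, limma adjusted p = 0.0377 and 0.0392). Of 17 translation factors and other genes with pyrimidine-tract messengers 1 was called, the snoRNA host gene Gas5, lower in D2 at -0.63 ± 0.13 (SE, limma adjusted p = 0.0262). The median strain difference was 0.02 over the biogenesis genes and 0.03 over the translation factors, close to the 0.01 of the members.

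Of 19 genes of the mTORC1 and S6 kinase pathway 2 were called between the strains. Mtor, the kinase itself, read 7.91, 8.13, 7.98, 7.93 and 8.08 in D2 livers and 7.31, 7.05, 7.38, 7.38 and 7.57 in B6 livers. The D2 arrays were all higher, by 0.67 ± 0.11 (SE, limma adjusted p = 0.0104). Ddit4, an inhibitor of mTORC1, was lower in D2, at -1.11 ± 0.22 (SE, limma adjusted p = 0.0217). On the diet 1 gene of this list was called, Eef2k, the kinase that inactivates elongation factor eEF2, with 5.58, 5.96, 6.41 and 5.97 in fed D2 livers against 4.80 at week 0 and 5.93, 5.50, 5.66 and 5.32 in fed B6 livers against 3.87. All fed arrays were higher, by 1.45 ± 0.23 (SE, limma adjusted p = 0.0238).

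Of 76 mitochondrial ribosomal protein genes 4 were called between the strains, Mrpl35 lower in D2 at -0.72 ± 0.10 and Mrpl47, Mrpl15 and Mrpl2 higher by 0.52 ± 0.10, 0.50 ± 0.10 and 0.35 ± 0.09 (SE, limma adjusted p = 0.00402, 0.0226, 0.0226 and 0.0478). Their median strain difference was 0.12. Of 34 proteasome genes 1 was called, Psmb6, lower in D2 at -0.55 ± 0.09 (SE, limma adjusted p = 0.00918), with a median of -0.06. On the diet none of the 76 and none of the 34 was called. Of the ribosomal proteins with other kinds of symbols only Fau was measured by a single-symbol probe set. It differed between the strains by 0.19 ± 0.09 and between fed and week 0 livers by 0.17 ± 0.11 (SE, limma adjusted p = 0.247 and 0.444).

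The tissue label was checked against hepatocyte markers, of which all 12 measured passed the filter, with medians between 12.61 and 12.67 on the D2 arrays and between 12.58 and 12.67 on the B6 arrays. None of them was called in either comparison. Markers of macrophages and Kupffer cells varied most among the B6 arrays. Their summed normalised signal was 4599, 5892, 4182, 4225 and 5837 in D2 livers at weeks 0, 1, 4, 12 and 21, and 4252, 9171, 24873, 4377 and 13016 in B6 livers. All 19 markers that passed the filter had negative strain differences and positive diet differences, 1 of them (Cd52) being called between the strains and none for the diet. Itgam lay below the filter. The median diet response of these markers was 0.11 in D2 livers and 1.29 in B6 livers, with none called in either strain. Of the markers of stellate cells and matrix 4 of 12 were called lower in D2, and of the endothelial markers 1 of 11 was, Lyve1 at -1.74 ± 0.19 (SE, limma adjusted p = 0.00148). Of the 7 cell division markers tested, all with negative strain differences, 1 was called lower in D2, Rrm2 at -2.54 ± 0.28 (SE, limma adjusted p = 0.0018), and Tyms and Birc5 lay below the filter. The summed signal of the division markers was 231, 209, 128, 142 and 175 in D2 livers over the 5 weeks, and 259, 1397, 405, 243 and 239 in B6 livers. No marker of stellate, endothelial or dividing cells was called for the diet, and no lymphocyte or cholangiocyte marker (5 and 2 tested) was called in either comparison. The part of these cells in the members' values was not tested.

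Of 10 clock genes tested, 5 were called between fed and week 0 livers, among them Dbp, higher by 3.92 ± 0.42, and Arntl, at -2.46 ± 0.44 (SE, limma adjusted p = 0.0139 and 0.0399). The hour of tissue collection was not given in the sources used here. Its part in the values of the clock genes and in the diet values of the members was not tested.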

How the data were processed

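Per the labels, total liver RNA was extracted with Trizol, pooled and labelled with biotin. Per the submitters' processing notes, the deposited signal intensities came from GCOS (version and settings not given in the sources used here), and the authors' values were linear, with array totals that differed. From them, log2(signal + 1.05) was computed after quantile normalisation over 45037 probe sets, without the 64 control sets among 45101. Of the probe sets 34945 had 1 symbol in the platform annotation, 932 had several and 9160 none. Each gene was read by its probe set of highest mean, and genes above the 50th percentile of probe set means were tested.

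Tests used limma 3.58.1 (lmFit, eBayes with trend) in R 4.3.3 with data.table (version 1.17.8), adjusted by Benjamini-Hochberg over 11061 genes with a threshold of 0.05, and were tested on simulated data. Figures and summaries used Python 3.11.15, pandas 2.3.3 and matplotlib 3.10.9. Week was a block in the strain comparison, as the labels give a D2 and a B6 pool for every week. The other comparisons used strain or the 4 groups of strain and feeding. The pools of a group differ in week, so p-values measure the spread between pools of different weeks. The number of arrays limits the precision. The members and gene lists were chosen with earlier results of these data known.

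Named members were the 6 highest and 6 lowest of a comparison, taken among called members or, where fewer were called, among members tested. The stalk proteins, Rpl11, Rps6, Rpsa, Rpl13a and tested paralogs with the member whose symbol they extend were followed in every comparison. Rps4l and Rps4x fell outside that rule, as no member has the symbol Rps4. From other lists up to 4 called genes were named, and the 5 genes most like the members by Pearson r. Alternatives covered normalisation, pseudocount, filter, probe set choice, variance model, block, time scale and each array left out. Centring on the tested genes that are no members was added after seeing the data. Confidence intervals are at 95%. Only the promoter windows of RefSeq (GRCm38.p6) were used for sequence.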

Additional observations from a re-analysis of the deposited data

Results flagged for a closer look

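In 11 of 94 combinations of a member and a group of 4 fed arrays, 1 array stood apart from the other three by more than 0.829 of the group's range, a separation that chance alone gives in about 1 in 20 groups. In D2 livers at week 1 Rpl7 (11.3) and Rps7 (11.5) were high and Rpl22 (11.3) was low, and at week 21 Rpl11 (11.2) and Rps6 (5.93) were high and Rpl13a (11.7) was low. In B6 livers Rps27l was high at week 1 (11.4), Rps10 at week 4 (12.0) and Rps14 at week 21 (11.9), while Rpl11 (10.8) and Rps3a1 (11.7) were low at week 12. All values are log2 normalised signals. For Rps6 the other three fed D2 arrays lay between 5.77 and 5.79, and all 4 were below the fed B6 arrays. For Rps3a1 the other three fed B6 arrays lay between 11.83 and 11.84.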

How the results depend on the processing

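Of 2659 values of the members named by the rule, over all alternatives, 2512 kept direction and side of the threshold, 93 uncalled values changed sign, 25 lost a call, 28 gained one (27 of them on the authors' own scale) and 1 reversed. That one was Rpsa, at 0.28 with the mean of all probe sets. All of these lost calls were those of Rps3a1 and Rpsa between the strains. The strain count of 6 was 4 to 5 with 1 array left out. It was 4 on the authors' own scale, with centring on array medians and with eBayes without trend. Over all genes 611, 860 and 649 were called there, against 883 in the main fit. With no filter, with the 75th percentile filter and without suffixed probe sets the member count was 5, with 749, 619 and 744 of all genes called. Under the other alternatives that kept all arrays, such as no replicate block, it stayed 6, with 624 to 904 of all genes called. On the authors' own scale 36 members were called for the diet and 25 for the response in B6. Over all genes 4990 were called there for the diet and 1946 for the response in B6. The medians of the members on that scale were 0.454 for the diet, 0.514 in B6, 0.318 in D2, -0.185 for the difference of responses and 0.0203 for the trend. Centring on array medians gave 0.105 for the strain, 0.0359 in B6, 0.0779 in D2 and 0.0532 for the difference of responses, where the sign turned. The D2 median was 0.0537 with the 75th percentile filter, 0.0797 with the mean of all probe sets and 0.000545 without suffixed probe sets, where the diet median was 0.189. Centring on the other tested genes gave 0.150 in B6 and -0.0446 for the difference of responses. With 1 array left out the diet count was 0 to 1, the diet median 0.0352 to 0.194 and the D2 median 0.0352 to 0.0570. The cause was not tested. Background was not given with the deposited values, and 1 pool per strain and week limits all values.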
